A study of Mus musculus with 21 samples.

Results

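The angiopoietin and Tie receptor system comprised 5 genes of the 45706 in the deposited expression table: the receptors Tek (Tie2) and Tie1, the receptor phosphatase Ptprb (VE-PTP) and the ligands Angpt1 and Angpt2. They were taken from the table by gene symbol, as the receptors, ligands and phosphatase of this system. Their RNA was measured in CD31-positive cells sorted from tumours of E0771.lmb, a mouse mammary cancer line grown in adult mice. Wild-type mice (WT) gave 11 libraries from 9 tumours, and Shb iECKO mice (KO) gave 10 libraries from 8 tumours. The KO mice carried Shb flox/flox and Cdh5-CreERt2, in which tamoxifen activates a Cre recombinase driven by the endothelial Cdh5 promoter, and the protocol places tumour growth after tamoxifen in WT mice as well. Tumours were taken on day 14 to 16. The labels also describe a Vav1-cre line, to which they assign no sample, and name a MACS step for CD45-positive cells that preceded sorting for CD31. Shb is an adaptor protein that binds activated tyrosine kinase receptors.

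Tek and Tie1 are receptor tyrosine kinases of endothelial cells. Angpt1, made mainly by pericytes and other mesenchymal cells and by platelets, activates Tek, which signals through AKT, restrains FOXO1 and keeps vessels quiescent and tight. Angpt2, made by endothelial cells that are activated or sprouting, acts on Tek as a weak or context-dependent ligand and can oppose Angpt1. Tie1 binds no angiopoietin with high affinity and modulates Tek within a complex, and Ptprb removes phosphate from Tek and from VE-cadherin.

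The 4 experiments held 3 WT and 2 KO, 3 and 4, 2 and 2, and 3 and 2 libraries. Values are in TPM, a unit scaled for gene length and to a fixed sum per library. It keeps no depth, so how many reads stand behind a level is unknown. Between 12178 and 20526 genes stood above 0 TPM per library, and mitochondrial genes took 1.27% to 23.01% of the TPM. All 10 endothelial reference genes, among them Pecam1 (CD31), passed the filter described below, and their summed level ran from 580 to 11500 TPM. It was lowest in WT replicate 2 of experiment 4 (Pecam1 95.04 TPM), KO replicate 2 of experiment 4 (241.7 TPM) and WT replicate 1 of experiment 2 (461.2 TPM). Leukocyte and macrophage markers summed to 38.7 to 3990 TPM in WT and 30.1 to 189 TPM in KO, the highest being WT replicate 2 of experiment 3. There were 2 columns headed as KO replicate 3 of experiment 2. They are called 3a and 3b here, and no column named the third KO sample of experiment 4. Library 3a is column 10, between KO replicate 2 and WT replicate 1 of experiment 2. Library 3b is column 18, between WT replicate 2 of experiment 3 and KO replicate 1 of experiment 4. Mitochondrial genes took 17.18% of the TPM in 3b and 1.27% to 7.94% in the other libraries headed experiment 2. Which sample each of the 2 columns holds is not known. Shb itself, the deleted gene, ran from 17.25 to 74.29 TPM in WT and from 6.00 to 52.7 TPM in KO, so the groups overlapped, and in experiment 1 both KO libraries lay within the WT range. In experiment 3 KO replicate 2, at 40.42 TPM, lay above both WT libraries, at 31.76 and 18.25 TPM. In experiments 2 and 4 every KO library lay below every WT library. Which exons were deleted is not given in the sources used here, so Shb RNA is no full check of the labels, and WT and KO mean what the labels say.

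Coordinates are those of GRCm38. Tek (ENSMUSG00000006386) and Tie1 (ENSMUSG00000033191) both lie on chromosome 4, Tek at chr4:94739289-94874976 on the plus strand and Tie1 at chr4:118471191-118490061 on the minus strand. Ptprb (ENSMUSG00000020154) lies at chr10:116275523-116389535 on the plus strand. Angpt2 (ENSMUSG00000031465) lies at chr8:18690263-18741562 on the minus strand, inside Mcph1 on the plus strand, and the genes share exonic bases. Mcph1 ran from 2.42 to 35.5 TPM with a median of 13.5 TPM. Angpt1 (ENSMUSG00000022309) lies at chr15:42424723-42676977 on the minus strand, and its antisense gene Gm17473 was listed at 0 in every library. The kit keeps strand, but whether counting used it is not given in the sources used here.

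Promoter sequences of Tek and Tie1 are shown as those of the receptors of the system. RefSeq entries of GRCm38.p6 were found for these 2 of the 5 genes. Their levels had r = 0.96 over the libraries on log2(TPM + 1) centred on experiments and r = 0.33 relative to other endothelial genes, as described further on. Each window holds 250 bases before the RefSeq start of the gene and 50 bases from that start on. The windows lie at chr4:94739039-94739338 on the plus strand and chr4:118489800-118490099 on the minus strand. The RefSeq and GENCODE starts of Tek were the same base, and those of Tie1 lay 212 bases apart. For Tie1 the RefSeq start is base 118489849. The GENCODE start, 118490061, which ends the coordinates given above, lies inside the window. Capitals mark matches on either strand to AGATAA, a motif of GATA factors, or to a motif of ETS factors, spelled out after the sequences. Bases are counted from the RefSeq start as 0.
Tek: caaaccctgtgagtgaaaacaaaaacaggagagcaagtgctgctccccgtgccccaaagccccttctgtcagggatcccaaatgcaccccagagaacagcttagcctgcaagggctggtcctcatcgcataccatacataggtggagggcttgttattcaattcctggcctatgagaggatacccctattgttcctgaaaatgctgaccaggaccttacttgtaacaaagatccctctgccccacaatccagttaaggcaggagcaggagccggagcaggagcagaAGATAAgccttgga
Tie1: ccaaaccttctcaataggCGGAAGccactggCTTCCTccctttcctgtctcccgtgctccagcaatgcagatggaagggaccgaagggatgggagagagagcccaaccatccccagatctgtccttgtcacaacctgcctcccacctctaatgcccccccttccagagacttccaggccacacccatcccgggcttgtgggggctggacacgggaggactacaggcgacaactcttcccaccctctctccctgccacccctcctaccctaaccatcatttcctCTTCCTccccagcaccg
In the window of Tek a single match stood at base 36, and 11.2% of 32851 promoter windows of this length held that motif. The first ETS motif searched was AGGAAG, which 35.4% of the windows held. It was matched in reverse at bases -219 and 33 of the Tie1 window. The second was CGGAAG, held by 16.9% of the windows and matched at base -232 of Tie1. No match overlapped another. The motif of FOXO factors that was searched, TGTTTAC, was held by 3.65% of the windows and was in neither of these. The GC content was 52.0% for Tek and 60.3% for Tie1.

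Both Tie receptors and their phosphatase were abundant in these cells, Angpt2 was of a similar order, and Angpt1 was near 0. Over all 21 libraries the median level was 429 TPM for Ptprb, 328 TPM for Tie1, 139 TPM for Angpt2, 122 TPM for Tek and 0.06 TPM for Angpt1. For each pair of neighbours in this order the mean log2 ratio within libraries differed from 0 by a two-sided sign-flip permutation test with 100000 resamples, adjusted over the 4 pairs, which were formed by sorting the same levels. For Ptprb over Tie1 and Angpt2 over Tek the mean ratio was smaller than its SD between libraries. Ptprb exceeded Tie1 in 17 of 21 libraries, with a mean log2 ratio of levels of 0.25 ± 0.29 (SD, adjusted permutation p = 0.00176). Tie1 exceeded Angpt2 in 19 of 21, with a log2 ratio of 0.96 ± 0.61 (adjusted permutation p = 4e-05). Angpt2 exceeded Tek in 15 of 21, with a log2 ratio of 0.47 ± 0.76 (adjusted permutation p = 0.0065). Tek exceeded Angpt1 in every library, with a log2 ratio of 6.33 ± 1.12 (adjusted permutation p = 4e-05), where the added 1 TPM sets the size. An unadjusted p of 2e-05 was the smallest the resamples can give.

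**Figure D1:**
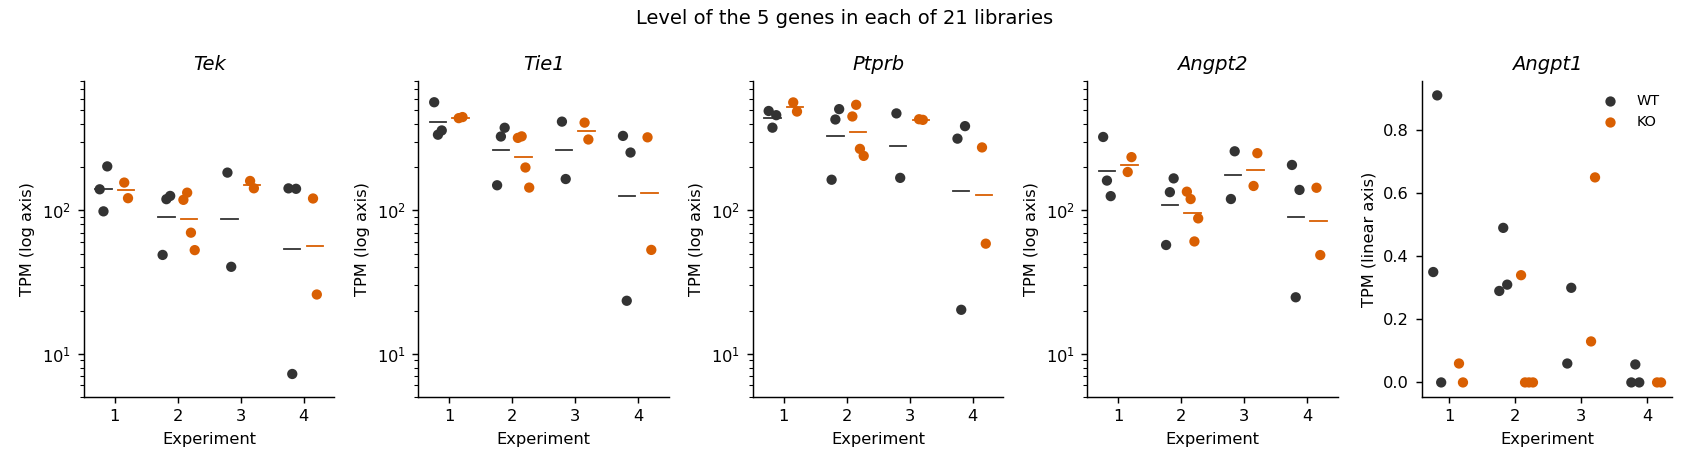
Level of each gene in TPM by experiment in WT (dark) and KO (orange) libraries. Each point is 1 library, short lines are means of log2(TPM + 1) shown as TPM, the Angpt1 axis is linear and has no means, and the other axes are logarithmic. WT and KO points overlap for all 5 genes, and the lowest points of Tek, Tie1, Ptprb and Angpt2 are in experiment 4.

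No difference between WT and KO was detected for Tek, the signalling receptor for both angiopoietins. In WT its lowest, median and highest levels were 7.21, 126 and 203 TPM, and in KO they were 25.9, 121 and 160 TPM. The KO range lay inside the WT range. By experiment, Tek stood at 140, 98.5 and 203 TPM in WT and 156 and 122 TPM in KO of experiment 1. In experiment 2 it stood at 48.9, 120 and 126 TPM in WT and 119, 133, 69.9 and 52.8 TPM in KO, the last 2 being replicates 3a and 3b. In experiment 3 the levels were 184 and 40.4 TPM in WT and 160 and 143 TPM in KO. WT replicate 2 of experiment 3, the low one, also had the highest leukocyte, fibroblast and platelet marker sums. The part these play in the Tek level was not tested. In experiment 4 the levels were 142, 7.21 and 142 TPM in WT and 121 and 25.9 TPM in KO. The 2 low libraries are those lowest in Pecam1.

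The difference of Tek between KO and WT, fitted with limma on log2(TPM + 1) with an experiment term, was 0.15 (SE 0.43, 95% interval -0.74 to 1.03, adjusted p = 0.978). The background of this comparison was 0.00741% of 13503 genes called at an adjusted p under 0.05, which is 1 gene, and 0 of the 4 tested members were called. With no adjustment, 794 genes had a p under 0.05, of which 128 were higher and 666 lower in KO, and the members had p from 0.65 to 0.953. The median difference over all genes was -0.11, so each member's difference lies 0.11 higher against that median than its own value. In bulk RNA, fewer cells of a type and less RNA per cell cannot be told apart.

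Tie1, the orphan receptor that pairs with Tek, ran from 23.4 to 569 TPM in WT, with a median of 331 TPM. In KO it ran from 53.0 to 448 TPM, with a median of 322 TPM. The groups overlapped, and the highest library was WT replicate 1 of experiment 1. On the log2 scale KO differed from WT by 0.07 (SE 0.39, limma adjusted p = 0.989, 95% interval -0.74 to 0.87). In separate experiments the differences of mean log2 levels were 0.11, -0.17, 0.45 and 0.06 in experiments 1 to 4.

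Ptprb, the phosphatase that counteracts Tek, ran from 20.2 to 509 TPM in WT with a median of 388 TPM. In KO it ran from 58.6 to 567 TPM with a median of 431 TPM. The ranges overlapped, with the highest KO libraries, KO replicate 1 of experiment 1 and KO replicate 2 of experiment 2, above every WT library. KO differed from WT by 0.19 on the log2 scale (SE 0.41, limma adjusted p = 0.973, 95% interval -0.66 to 1.04). Within experiments 1 to 4 it was 0.25, 0.11, 0.60 and -0.10.

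Angpt2, the ligand made by the endothelial cells themselves, ran from 24.7 to 325 TPM in WT with a median of 139 TPM. In KO it ran from 48.8 to 251 TPM with a median of 139.5 TPM. The groups overlapped, with the highest level in WT replicate 1 of experiment 1 and the next 2 in WT replicate 2 and KO replicate 2 of experiment 3, at 259 and 251 TPM. KO differed from WT by -0.02 on the log2 scale (SE 0.33, limma adjusted p = 0.996, 95% interval -0.70 to 0.66). Within experiments 1 to 4 it was 0.15, -0.17, 0.13 and -0.10.

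Angpt1, the activating ligand, was at most 0.91 TPM in any library and failed the filter of at least 1 TPM in at least 10 libraries. It was listed at 0 in 3 of 11 WT and 6 of 10 KO libraries. In WT it stood at 0.35, 0.91 and 0 TPM in experiment 1, 0.29, 0.49 and 0.31 TPM in experiment 2, 0.06 and 0.30 TPM in experiment 3, and 0, 0.057 and 0 TPM in experiment 4. In KO it stood at 0.06 and 0 TPM in experiment 1, 0.34 TPM and 3 values of 0 in experiment 2, 0.13 and 0.65 TPM in experiment 3, and 0 in both libraries of experiment 4. Most of the zeros were in KO libraries of experiments 2 and 4 and in WT libraries of experiment 4, and the groups overlapped. The KO minus WT difference of log2(TPM + 1) was -0.17, with an exact two-sided permutation p = 0.159 over 21000 arrangements of genotype within experiments, not adjusted. Without experiment 3 the exact p was 0.0474, and without KO replicate 2 of experiment 3, the highest KO library, it was 0.0335. These were the 2 of 39 alternatives past the threshold, and neither p is adjusted. Libraries with Angpt1 listed at 0 had 12178 to 16540 genes above 0 TPM. The others had 17082 or more, except WT replicate 2 of experiment 1 (12550) and KO replicate 2 of experiment 3 (14540). The part of this in the zeros was not tested. TPM keeps no depth, so no detection limit can be set for levels this low. Markers of pericytes and smooth muscle, cells known to make Angpt1, summed to 45.8 to 224 TPM in WT and 12.5 to 170 TPM in KO, fibroblast markers to 28.2 to 581 and 8.15 to 153 TPM, and their part in the Angpt1 values was not tested.

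**Figure D2:**
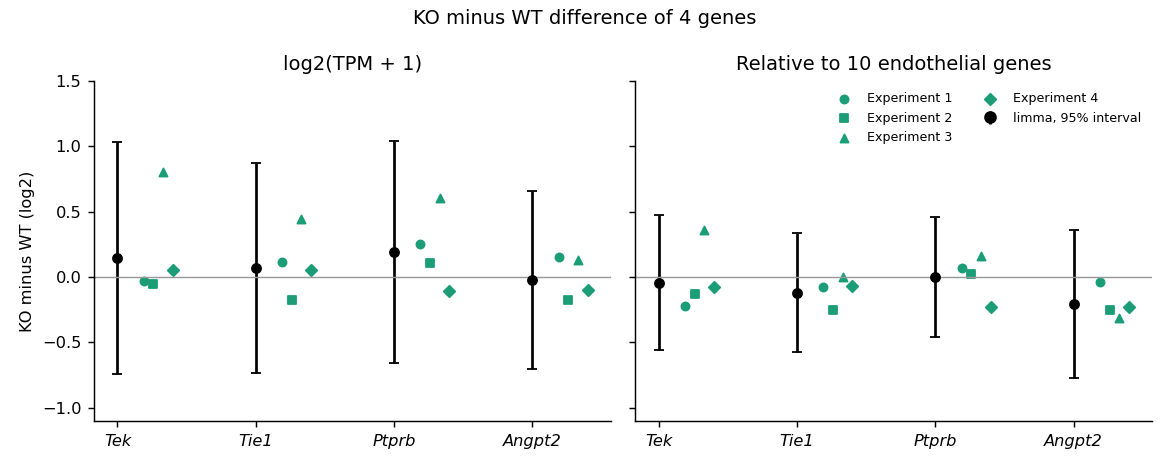
KO minus WT difference in log2 units for 4 genes, on log2(TPM + 1) at left and relative to 10 endothelial genes at right. Black points are limma estimates with 95% intervals over 21 libraries, and green symbols are the differences within single experiments; every interval includes 0, and intervals are narrower at right.

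No member's KO effect differed between experiments by limma's F test of the genotype by experiment terms. The adjusted p was 1 for Tek, Tie1, Ptprb and Angpt2. The background was 0% of genes called, and 518 genes had an unadjusted p under 0.05, with the members' unadjusted p between 0.919 and 0.983. The direction of each member's difference between KO and WT changed under some treatments of other cells or the library scale. It also changed with some single libraries left out. With mean leukocyte and fibroblast marker levels added as terms the differences were -0.75 for Tek, -0.64 for Tie1, -0.64 for Ptprb and -0.40 for Angpt2. Their limma adjusted p ran from 0.571 to 0.644. All 8 tested leukocyte markers and all 4 tested fibroblast markers had lower means in KO, by a median log2 difference of -1.43 and -1.31, and none was called. All 7 tested pericyte and smooth muscle markers were also lower, beside 8641 of all 13503 genes. An unadjusted limma p under 0.05 was found for 7 leukocyte, 2 fibroblast and 3 pericyte and smooth muscle markers, beside 794 of all genes.

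Much of the spread of these genes between libraries was shared with other endothelial genes. Tek spanned 24.8-fold between its lowest and highest library in TPM + 1, Tie1 23.4-fold, Ptprb 26.8-fold and Angpt2 12.7-fold. Each level was then taken relative to the mean log2(TPM + 1) of Pecam1, Cdh5, Kdr, Flt1, Egfl7, Erg, Emcn, Cldn5, Eng and Esam in the same library. On that scale the span was 2.85-fold for Tek, 1.65-fold for Tie1, 1.92-fold for Ptprb and 4.27-fold for Angpt2. Of these 4 genes Tie1 thus varied least relative to the reference over the 21 libraries, and Angpt2 most. The highest relative log2 levels of Angpt2 were in WT replicate 2 of experiment 3 (-0.57) and of experiment 4 (-0.93). Without these libraries Angpt2 ran from -2.667 to -1.485 and Tek from -2.813 to -1.711, so their spans were closer.

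**Figure D3:**
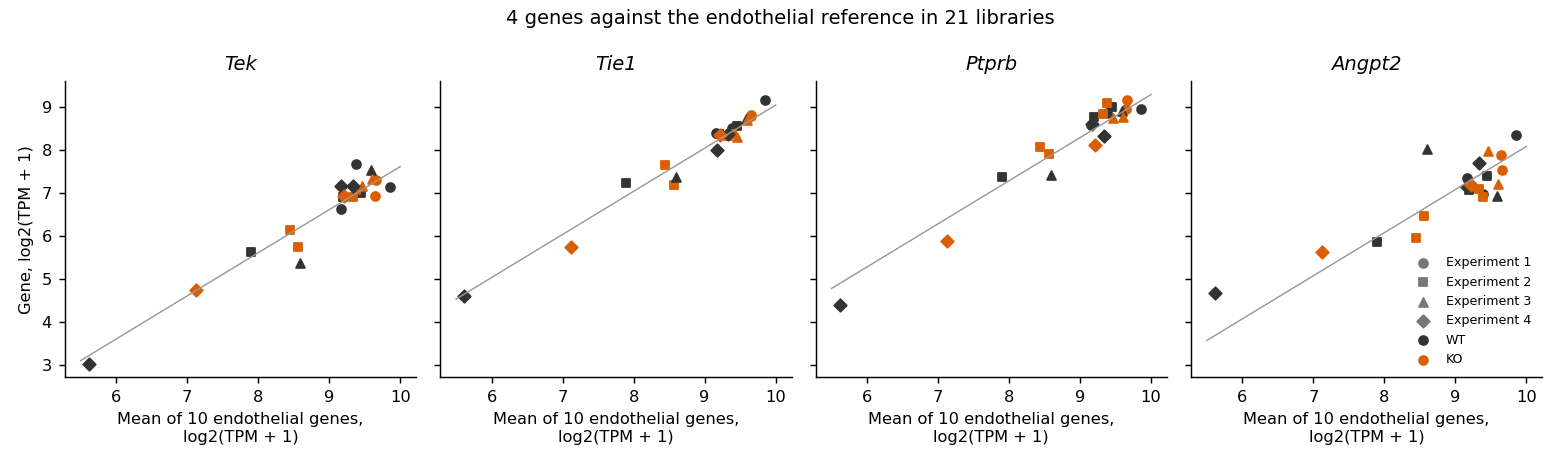
Level of each gene against the mean of 10 endothelial reference genes, both in log2(TPM + 1), with 1 point per library, colours for genotype and symbols for experiment. The grey line has slope 1 and passes through the gene's mean relative level; Tie1 points lie closest to it, and for Angpt2 the WT replicate 2 libraries of experiments 3 and 4 lie above it.

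Relative to the endothelial reference, no difference between WT and KO was detected for the members either. The relative log2 level of Tek was -2.36 ± 0.40 in WT (SD, n = 11) and -2.41 ± 0.19 in KO (SD, n = 10). Tie1 stood at -0.90 ± 0.18 in WT and -1.02 ± 0.22 in KO, and Ptprb at -0.74 ± 0.29 and -0.69 ± 0.30. Angpt2 stood at -1.80 ± 0.61 in WT and -2.05 ± 0.37 in KO. The KO minus WT differences in the fit with experiment were -0.04 for Tek, -0.12 for Tie1, 0.001 for Ptprb and -0.21 for Angpt2. Their limma 95% intervals were -0.56 to 0.48, -0.57 to 0.34, -0.45 to 0.46 and -0.77 to 0.36. Exact two-sided permutation tests gave p = 0.791, 0.152, 0.99 and 0.386, and 0.904 to 0.99 after adjustment over 8 ratios. Angpt2 was lower in KO in each of the 4 experiments, with differences of -0.03, -0.25, -0.31 and -0.23. In experiment 3 the WT libraries stood at -2.67 and -0.57 and the KO libraries at -2.38 and -1.49. Without WT replicate 2, which has the highest leukocyte, fibroblast and platelet marker sums, KO was 0.73 higher there. Leaving that library out moved the difference over all experiments from -0.21 to -0.05, and leaving out WT replicate 1 of experiment 3 moved it to -0.35.

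**Figure D4:**
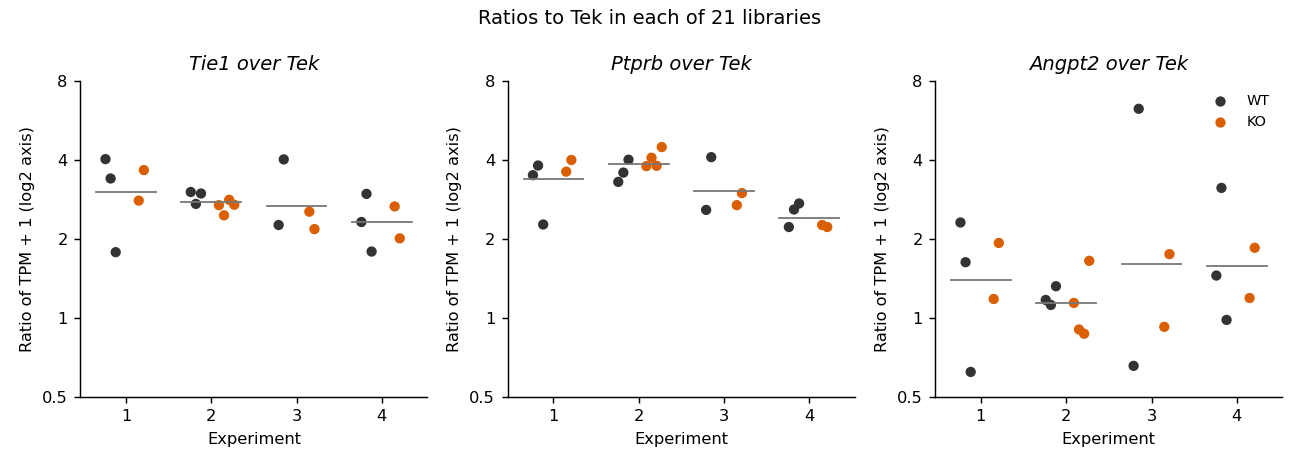
Ratio of Tie1, Ptprb and Angpt2 to Tek in TPM + 1 on a log2 axis, by experiment, in WT (dark) and KO (orange) libraries, with grey lines at geometric means over all libraries of an experiment. Ptprb over Tek is 3.30 to 4.48 in experiment 2, which holds 3a and 3b as headed, and 2.22 to 2.73 in experiment 4. The highest Angpt2 over Tek is 6.27 in a WT library of experiment 3.

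Ratios within a library do not depend on its scaling apart from the added 1 TPM. The ratio of Angpt2 to Tek had a median of 1.19 and ran from 0.622 to 6.27. In WT it ran over that whole range, with a median of 1.32, and in KO it ran from 0.870 to 1.93, with a median of 1.19. WT replicate 2 of experiment 3 had the highest ratio, 6.27, and WT replicate 2 of experiment 4 the next, 3.13. These are the libraries with the highest leukocyte marker sums, 3990 and 523 TPM. The first also had the highest fibroblast (581 TPM) and platelet (402 TPM) marker sums, and the second the highest tumour epithelium sum (269 TPM). WT replicate 1 of experiment 3 had the next leukocyte sum, 275 TPM, and a ratio of 0.656. The part of any of these cells in the ratio was not tested. The KO minus WT difference of the log2 ratio was -0.17 (exact permutation p = 0.681, adjusted p = 0.904).

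Tie1 over Tek had a median of 2.70 and ran from 1.78 to 4.03. Its log2 ratio differed by -0.08 between KO and WT (exact permutation p = 0.618). Ptprb over Tek had a median of 3.50 and ran from 2.22 to 4.48, and its KO minus WT difference was 0.04 (exact permutation p = 0.689). Angpt2 over Angpt1 differed by 0.15 (exact permutation p = 0.67), a value set mostly by Angpt2 and the added 1 TPM. The adjusted p of each was 0.904.

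On log2(TPM + 1) a larger share of the variance went with experiment, which has 3 terms, than with genotype, which has 1. Experiment explained 33.5% of the variance of log2(TPM + 1) for Tie1, 34.9% for Ptprb, 33.2% for Angpt2 and 19.9% for Tek, while genotype explained at most 0.671%. Relative to the endothelial reference, experiment explained 62.1% for Ptprb, 26.8% for Tie1, 20.9% for Angpt2 and 3.95% for Tek, and genotype 8.99% for Tie1, 4.1% for Angpt2 and under 1% for the other members. By limma's F test of the experiment terms 0 of 4 members were called, with adjusted p of 0.279 for Tek, 0.0873 for Tie1, 0.0754 for Ptprb and 0.101 for Angpt2. The background here was 29.1% of genes called. Without WT replicate 1 of experiment 4, Tie1, Angpt2 and Ptprb were called. Ptprb was called without WT replicate 3 of experiment 4, Tie1 without KO replicate 1 of experiment 4, and Tie1 and Ptprb with leukocyte and fibroblast terms. The share of all genes called was not counted in these alternatives, so these calls have no background and say nothing particular to the members.

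Of 7 ratios and relative levels compared between experiments, those 2 that passed the test were both of Ptprb. Ptprb over Tek was 3.30, 3.58 and 4.01 in WT and 3.79, 4.08, 3.80 and 4.48 in KO of experiment 2. In experiment 4 it was 2.22, 2.59 and 2.73 in WT and 2.26 and 2.22 in KO. With the columns as headed, the experiments did not overlap in either genotype. With 3b (4.48) or 3a (3.80) counted in experiment 4 instead, the KO ranges overlap. In experiment 1 the ratio ran from 2.27 to 4.00 and in experiment 3 from 2.58 to 4.10, across the ranges of experiments 2 and 4. The geometric means were 3.37, 3.85, 3.04 and 2.39 in experiments 1 to 4. A permutation F test with experiment labels permuted within genotype (100000 resamples) gave p = 0.0028, adjusted over 7 such measures to p = 0.0098. For Ptprb relative to the endothelial reference, with log2 means of -0.65, -0.46, -0.86 and -1.03 in experiments 1 to 4, the permutation p was 0.00275 and the adjusted p 0.0098. The other 5 measures had adjusted permutation p of 0.28 to 0.901.

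Placing the doubtful library 3b in experiment 4 gave a permutation p of 0.07 for Ptprb over Tek, adjusted to 0.163, and an adjusted p of 0.0307 for relative Ptprb. Placing 3a there instead gave an adjusted permutation p of 0.12 for both, and leaving both out gave 0.0348 and 0.0343. Without the 3 libraries lowest in Pecam1, of which 2 are in experiment 4, the adjusted permutation p was 0.0861 for both. The difference between experiments therefore did not hold under each of these choices. The mitochondrial share ran from 1.27% to 17.18% in experiment 2 and from 4.33% to 23.01% in experiment 4, and its part was not tested.

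**Figure D5:**
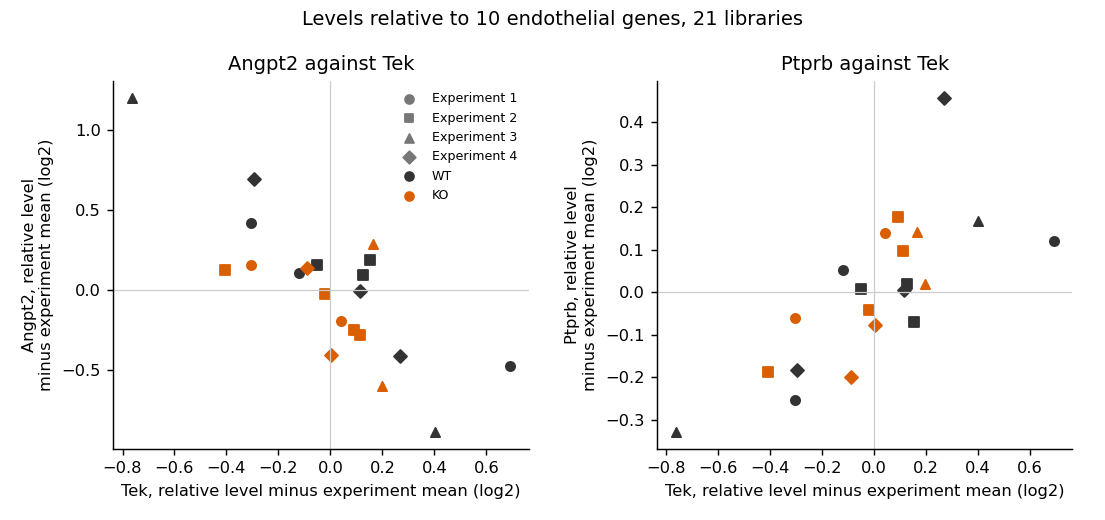
Angpt2 (left) and Ptprb (right) against Tek, each relative to 10 endothelial genes and minus its experiment mean, in log2 units, with 1 point per library, colours for genotype and symbols for experiment. Angpt2 declines as Tek increases and Ptprb increases with it; the WT replicate 2 library of experiment 3 is at the far left in both.

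Within experiments, libraries with more Tek relative to the endothelial reference had less Angpt2 and more Ptprb. Relative levels were centred on experiment means, and 6 pairs of members were compared over 21 libraries, which come from 17 tumours and so are not all independent. For Tek and Angpt2 Pearson's r was -0.80 (permutation p = 5e-05, adjusted p = 0.00015) and Spearman's rho was -0.68 (permutation p = 0.0009). Without WT replicate 3 of experiment 1 and WT replicate 2 of experiment 3, the libraries farthest from the median of Tek, r was -0.62. Without WT replicate 2 of experiment 3 alone it was -0.66, and with 3b placed in experiment 4 it was -0.69. In experiment 2 alone, the only experiment with at least 6 libraries, r was -0.32 (n = 7).

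For Tek and Ptprb r was 0.74 (permutation p = 3e-05, adjusted p = 0.00015) and rho was 0.74 (permutation p = 0.00026). It was 0.76 without the same 2 libraries, 0.70 in experiment 2 alone and 0.48 with 3b placed in experiment 4. For Ptprb and Angpt2 r was -0.69 (permutation p = 0.0022, adjusted p = 0.0044) and rho was -0.63 (permutation p = 0.00751), with r at -0.52 without the 2 libraries farthest from the median of Ptprb and -0.75 in experiment 2 alone. The pairs with Tie1 had r between -0.26 and 0.33, with adjusted permutation p of 0.154 or more. In experiment 2 alone r was 0.90 for Tek and Tie1, 0.42 for Tie1 and Ptprb and -0.02 for Tie1 and Angpt2. Without the 2 libraries farthest from the median of the gene named first, these were 0.45, -0.25 and -0.29. Without 3b alone r was 0.18 for Tek and Tie1. Both members of a pair share the subtracted reference, and on unadjusted log2(TPM + 1) centred on experiments Tek and Angpt2 had a positive r of 0.68.

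The genes nearest in pattern were found by Pearson's r of log2(TPM + 1) centred on experiment means over 21 libraries, which share library scale and endothelial content. The named ones were taken among genes with a mean log2(TPM + 1) of at least 2, without predicted gene models or mitochondrial genes. Places are counted over all tested genes. Nearest to Tek were Rasip1 (r = 0.98), a Ras-interacting protein of vessel lumen formation, Adgrg1, an adhesion receptor, Tm4sf1, a membrane protein, Ptprb (r = 0.98) and Fat4, a large cadherin. Nearest to Tie1 were Exoc3l2 (r = 0.99), Eng, a TGF-beta co-receptor, Mmrn2, a matrix protein of endothelium, Kdr, the main VEGF receptor, and Cd34. Nearest to Ptprb were Lrrc32 (r = 0.99), which docks latent TGF-beta, Prkch, a protein kinase C, Fat4, Heg1 and Slc9a3r2. Of 13502 other genes, Tie1 ranked place 29 for Tek and Angpt2 place 1497.

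For Angpt2 the nearest genes were the protease Prss23 (r = 0.94), Igfbp3, which binds insulin-like growth factors, Col13a1, a transmembrane collagen, the matricellular Ctgf and Lgals3bp, a secreted glycoprotein. On the scale relative to the endothelial reference its nearest were Fn1 (r = 0.88), fibronectin, Lcp2, a leukocyte signalling adaptor, Lgals3bp, Tnc, tenascin C, and Ctgf. Tek ranked last of 13502 genes there and Ptprb place 13498. Ptprc, the leukocyte antigen CD45, had r = 0.51 with Angpt2 on that scale (place 4560 of 13502), r = -0.41 with Tek (place 10430) and r = -0.61 with Ptprb (place 13112), and its part in these patterns was not tested. Relative Tek was nearest to Npr1, a natriuretic peptide receptor (r = 0.82), Plcb4, Sema6a, Ptprb and Fat4.

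Genes around the receptors had no calls between KO and WT in any of 6 lists, beside 1 of all 13503 genes (0.00741%). With so few calls among all genes, the lack of calls says nothing particular to these lists. The other ligands and Tie1-binding proteins, Angpt4, Svep1 and Lect2, all failed the filter. The membrane partners had a median log2 difference of -0.14, with 1 of 4 tested genes above 0 against 4862 of all 13503, and among them VE-cadherin (Cdh5) stood at 0.23 (SE 0.40), the integrin subunit Itgb1 at -0.16 (SE 0.24) and the phosphatase Ptpn11 at -0.21 (SE 0.22). Adaptors and kinases had 5 of 14 above 0 and a median of -0.04. Dok2, an adaptor that binds Tek, stood at -0.98 (SE 0.67), Pak1, a kinase downstream of Rac, at -0.71 (SE 0.47), and Shb at -0.91 (SE 0.33, limma adjusted p = 0.82). Transcription factors had 10 of 13 above 0 and a median of 0.10, with Tal1 at 0.29 (SE 0.35), Fli1 at 0.26 (SE 0.37) and Hif1a at -0.25 (SE 0.28).

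FOXO targets, which Tek signalling is known to restrain through AKT, had 2 of 13 tested genes above 0 and a median log2 difference of -0.28, beside -0.11 over all genes. Irs2, an insulin receptor substrate, stood at -0.86 (SE 0.55), Fbxo32, a ubiquitin ligase, at -0.42 (SE 0.29) and Ccng2, a cyclin of arrested cells, at -0.36 (SE 0.25), each with a limma adjusted p of 0.836 or more. Endothelial outputs had 4 of 8 above 0 and a median of -0.03. Birc5, which encodes survivin, stood at -0.56 (SE 0.33), Nos3, the endothelial nitric oxide synthase, at 0.35 (SE 0.39) and Pdgfb, which recruits pericytes, at 0.17 (SE 0.34). Between experiments 6 of the 8 outputs were called by limma's F test, among them Pdgfb (adjusted p = 0.0304) and Nos3 (adjusted p = 0.0421). The other tested lists had 1 of 4 membrane partners, 4 of 14 adaptors and kinases, 3 of 13 transcription factors and 2 of 13 FOXO targets called. The background was 29.1% of genes, and the outputs were the list with the highest share.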

How the data were processed

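RNA from 21 samples was sequenced after ribosomal RNA depletion and read in pairs of 150 bases from a stranded kit and 30 ng of RNA, as the labels' protocols state. TPM per gene, as deposited by the authors, was written with decimal commas, and the build GRCm38 is given in the submitters' processing notes. Neither an aligner nor a counting tool is named there. TPM sums to a fixed total per library, so a transcript that takes a large share lowers all others. Date-like names of 27 genes were restored from their identifiers.

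Libraries were grouped by column name. The 2 columns with the same header entered as KO of experiment 2. Samples came from 17 tumours, with no label to say which belong together, and p-values therefore partly reflect spread within tumours. Replicate numbers were not used to pair the samples. Correlations of log2(TPM + 1) between replicates ran from 0.743 to 0.947, so no library looked like a copy.

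A filter of 1 TPM or more in at least 10 libraries left 13503 genes. They were tested on log2(TPM + 1), a scale that understates changes of low genes, with limma 3.58.1 (trended, robust; statmod 1.5.0, R 4.3.3), genotype and experiment as terms and Benjamini-Hochberg adjustment over all genes, called under 0.05. In data simulated for KO minus WT over 13503 genes with 200 changed by a log2 value of 3, 97.5% were recovered with 8 false calls. The noise was drawn for each gene separately, and no smaller change was simulated. The share recovered therefore does not show that changes within the members' intervals would be called. Shb itself, at -0.91, was not called (limma adjusted p = 0.82). Exact and resampled permutation tests used Python 3.11.15 with scipy 1.17.1 and pandas 2.3.3. Coordinates come from GENCODE and promoters from RefSeq.

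Named genes are the 5 members and the 5 nearest genes of each tested member, within the limits given with them. Of each pathway list the 3 tested genes with the smallest unadjusted p are named. Shb, Ptprc, Mcph1 and Gm17473 are named where a result turns on them. The members and lists were chosen with earlier results of these data known. Tests between experiments of ratios and relative levels, relations between members, and several alternatives were added after seeing the data.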

Additional observations from a re-analysis of the deposited data

Results flagged for a closer look

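Angpt1 in KO libraries was highest in KO replicate 2 of experiment 3, at 0.65 TPM, while the next library stood at 0.34 TPM. The gap was a share of 0.477 of the group's range. Within KO of experiment 2, replicate 1 stood at 0.34 TPM and the other 3 libraries were listed at 0. With the others at 0, any value above 0 would stand out in this way, so that mark carries no information. All these levels are below 1 TPM, where no detection limit can be set. Of 24 groups tested in this way, chance flags about 1 in 20. For each measure the groups were all KO libraries and KO of experiment 2, which overlap. WT libraries were not tested in this way.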

How the results depend on the processing

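TPM keeps no depth, so no counting error can be given, and Angpt1 lies below what the filter allows. The order of the levels kept its direction and stayed under the threshold in all 24 alternatives, and no member's KO effect differed between experiments in any of 39. No alternative brought Tek, Tie1, Ptprb or Angpt2 past the threshold in KO minus WT (adjusted p 0.571 to 1 over 42 alternatives each), but their signs changed. Causes were not tested.

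Relative to the endothelial reference the difference was -0.042 for Tek and -0.119 for Tie1. With leukocyte and fibroblast means it was -0.753 for Tek, -0.644 for Tie1 and -0.635 for Ptprb. Without the 3 libraries lowest in Pecam1 it was -0.0091 for Tek and -0.0215 for Tie1, and without experiment 3 -0.0141 and -0.0227. Angpt2 became 0.0876 with a common median, 0.0431 by quantile normalization, 0.0457 with TPM rescaled without mitochondrial and highest genes, 0.0011 with 3b or 3a placed in experiment 4, 0.101 without both, 0.0571 without experiment 2 and 0.0044 without experiment 4. Angpt1 was -0.269 without experiment 3, past the threshold by an exact permutation p that is not adjusted. Ptprb over Tek was -0.0312 without experiment 1 and -0.0138 without experiment 2. Relative Tek was 0.0123 and 0.0031 there, and relative Ptprb -0.0189 and -0.0107, with -0.038 without experiment 3 and -0.0048 at a pseudocount of 5.

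Leaving out 1 library at a time gave -0.131 to 0.33 for Tek, -0.173 to 0.278 for Tie1, -0.0742 to 0.395 for Ptprb, -0.202 to 0.112 for Angpt2 and -0.24 to -0.116 for Angpt1. Ratios ran from -0.357 to 0.0974 for Angpt2 over Tek, -0.158 to 0.0007 for Tie1 over Tek, -0.0132 to 0.107 for Ptprb over Tek and -0.0271 to 0.3001 for Angpt2 over Angpt1. Relative levels ran from -0.151 to 0.0266 for Tek, -0.163 to -0.0787 for Tie1, -0.346 to -0.0538 for Angpt2 and -0.0446 to 0.0478 for Ptprb. The number of members differing between experiments was 0 to 3, and 2 with leukocyte and fibroblast means, with no share of all genes counted beside it. The log2 difference of Ptprb over Tek between experiments 2 and 4 was 0.686 and that of relative Ptprb 0.564. No longer past the threshold were Ptprb over Tek with 3b placed in experiment 4 (0.499), with 3a placed there (0.577) and without the 3 libraries lowest in Pecam1 (0.724), and relative Ptprb with 3a placed there (0.438) and without those 3 libraries (0.448).

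Genes called in KO minus WT numbered 2 with a common median, quantile normalization or rescaled TPM, 8 with arrayWeights, and 0 without experiment 1 or 2. For WT and KO libraries that share a number, deviations from their group means had r from -0.204 to 0.345. In experiment 4 it was 0.316 and 0.345. Where a group holds 2 libraries their deviations mirror each other, so these values cannot decide whether numbers pair the libraries. With experiment by replicate number as a block, the differences were 0.38 for Tek, 0.17 for Tie1, 0.38 for Ptprb and -0.01 for Angpt2, and 0 genes were called. Angpt1 was not run with covariates, without the experiment term or with the block.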
